A study of Canis lupus familiaris with 22 samples.

Results

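The dipeptidyl peptidase genes *DPP4*, *DPP8*, *DPP9*, *DPP7*, *DPP3*, *DPP6* and *DPP10* were followed in the blood of dogs with canine atopic dermatitis (cAD), a chronic itching skin disease with allergic sensitization, and of healthy dogs. The members were the probes whose gene name in the array files is that of 1 of these 7 genes, which gave 7 of 34382 gene names and 14 of 43603 distinct probes. *DPP7* and *DPP10* had 3 probes each, *DPP3*, *DPP4* and *DPP6* had 2 each, and *DPP8* and *DPP9* had 1 each. The probes of a gene are numbered from the 5' to the 3' end of its transcript, and all 7 names stand as protein-coding genes in the RefSeq gene table of the dog.

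On each of 22 two-colour Agilent canine arrays, Cy5 labelled a dog's own RNA and Cy3 a reference shared by all arrays, pooled from the blood of 13 healthy dogs. The ctrl group was 8 healthy dogs, which were blood donors and received no therapy. The cAD patients were 7 dogs sampled before allergen-specific immunotherapy (before ASIT) and the same 7 dogs sampled again after 6 months of it (after ASIT). All were adult client-owned animals of several breeds. Comparisons are written as 0 vs. ctrl (before ASIT against ctrl), 6 months vs. ctrl (after ASIT against ctrl) and 0 vs. 6 months (before against after ASIT). Whole blood is the material in the labels, where the study's methods speak of peripheral blood nuclear cells. The ctrl arrays filled 2 slides that were scanned on a day of their own, so ctrl, slide and scan day cannot be told apart. Each of dogs 1 to 3 had its arrays of both times on the same slide. Those of dogs 4 to 7 were on slides 4 and 5 before ASIT and on slide 6, scanned on another day, after ASIT. In dogs 4 to 7 the time of sampling thus cannot be told apart from slide and scan day. A probe is called well above background where the scanner software flagged it so. The share of all probes with Cy5 well above background ranged from 83.6% to 92.2% on the ctrl arrays, from 61.2% to 87.5% on slide 3 (dogs 1 and 2, before and after ASIT) and from 53.3% to 64.9% on the 10 arrays of slides 4 to 6 (dogs 3 to 7). In Cy3, which held the same RNA on every array, the share fell within 80.0% to 88.1% on the ctrl slides and 51.2% to 62.9% on slides 4 to 6. Markers of blood cells were present: 12 of 12 T cell genes, 9 of 10 neutrophil genes, 7 of 7 monocyte genes and 5 of 7 B cell genes on the array had a probe well above background on all 22 arrays.

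Dipeptidyl peptidases remove a pair of residues from the amino end of peptides, with a preference for chains that carry proline or alanine next to it. DPP4, also known as CD26, is a surface serine peptidase of T cells and epithelia that trims chemokines and incretin hormones and binds adenosine deaminase. DPP8 and DPP9 are its cytosolic relatives and restrain the NLRP1 and CARD8 inflammasomes. DPP7 is a peptidase of intracellular vesicles in resting lymphocytes, and DPP3 is a cytosolic zinc peptidase that binds KEAP1, the sensor of the oxidative stress response. DPP6 and DPP10 share the fold of DPP4 but have no peptidase activity, and are known as accessory subunits of Kv4 potassium channels in neurons. *DPP10* is also known as a locus of asthma susceptibility in people.

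Probe sequences, read from the array files, show what each member was measured by. The *DPP8* and *DPP9* probes start at positions 2614 and 2699 of their transcripts, as the array files give them, and match in part. Laid side by side without gaps they shared 33 of 49 overlapping bases (capitals), the highest number among 82 pairs of member probes from different genes. In CanFam3.1 coordinates the *DPP8* probe is at chr30:29806392-29806451 (minus strand) and the *DPP9* probe at chr20:55077414-55077473 (plus strand).
DPP8: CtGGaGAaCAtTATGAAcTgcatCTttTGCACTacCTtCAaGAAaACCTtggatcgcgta
DPP9: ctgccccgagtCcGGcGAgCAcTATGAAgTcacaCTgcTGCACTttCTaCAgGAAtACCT

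The pair without peptidase activity has an analogous pair of probes. *DPP6* probe 1 (chr16:17789277-17789336, plus strand) and *DPP10* probe 1 (chr19:33707505-33707564, minus strand) shared 30 of 57 overlapping bases, shown in capitals. *DPP4* probe 2 and *DPP10* probe 3, both with 35% G and C, shared 29 of 59 by the same count, so that a number of this size does not set the pair apart.
DPP6 probe 1: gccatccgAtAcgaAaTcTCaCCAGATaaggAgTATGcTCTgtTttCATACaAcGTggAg
DPP10 probe 1: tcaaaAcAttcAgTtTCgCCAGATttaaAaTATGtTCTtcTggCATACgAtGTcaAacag

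*DPP4* probe 1 (chr36:7399773-7399832, minus strand) is shown because *DPP4* had the widest change within a dog among the probes above background on every array. *DPP10* probe 3 (chr19:33433015-33433073, minus strand, a span of 59 bases in the array files) is shown because its log2 ratio differed between groups, although it was above background in Cy5 on only 1 of 14 patient arrays. Of its 60 bases, 23 to 52 are shown, with the stop triplets TAA, TAG and TGA in capitals. The whole probe held 7 such triplets and no open reading frame, while each of the other 13 member probes had at least 1 open frame. Exons and untranslated regions of CanFam3.1 were not analysed here.
DPP4 probe 1: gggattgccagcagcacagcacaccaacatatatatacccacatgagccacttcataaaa
DPP10 probe 3: cagTAGTAAgTAAccgagagtaTAAaaTAA

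The peptidases of the family were measured above background in the blood of every dog, and the pair of channel subunits was not. *DPP4*, *DPP7*, *DPP8*, *DPP9* and *DPP3* each had a probe well above background in Cy5 on all 22 arrays, and so did both *DPP4* probes and all 3 *DPP7* probes. These were 8 of 14 member probes, against 47.8% of all probes on the array. The same 8 were above background on all 22 arrays in the Cy3 reference. *DPP3* probe 1 was above background in Cy5 on 17 arrays and in Cy3 on 12.

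*DPP6* and *DPP10* were above background mostly on the ctrl arrays, where group, slide and scan day cannot be told apart. *DPP6* probe 1, *DPP6* probe 2 and *DPP10* probe 3 were each above background in Cy5 on all 8 ctrl arrays and on none (0 of 10) of those of slides 4 to 6, a pattern held by 12.3% of all probes. *DPP6* probe 2 was in Cy5 at 114 to 313 signal units on the ctrl arrays, at 76.9 to 315 on the 4 arrays of slide 3 and at 5.63 to 15.1 on slides 4 to 6. The dogs of slide 3 were thus within or close to the range of the ctrl dogs, both before and after ASIT, and the other 5 patients were far below it. In Cy3 the same probe gave 134 to 246 units on the ctrl arrays, 71.9 to 170 on slide 3 and 8.26 to 33.8 on slides 4 to 6, although Cy3 held the same reference RNA throughout. By *DPP10* probe 2, Cy5 was above background in 6 of 8 ctrl dogs, in 1 of 7 patients before ASIT and in 0 of 7 after it. *DPP10* probe 1 was above background on 0 of 22 arrays in either channel, and its ratio was written as exactly 0 on 20 of them. The *DPP10* transcript was therefore followed by probes 2 and 3 alone, and in the cAD patients it was above background in Cy5 on 1 array by each of them, in both cases that of dog 1 before ASIT.

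**Figure D1:**
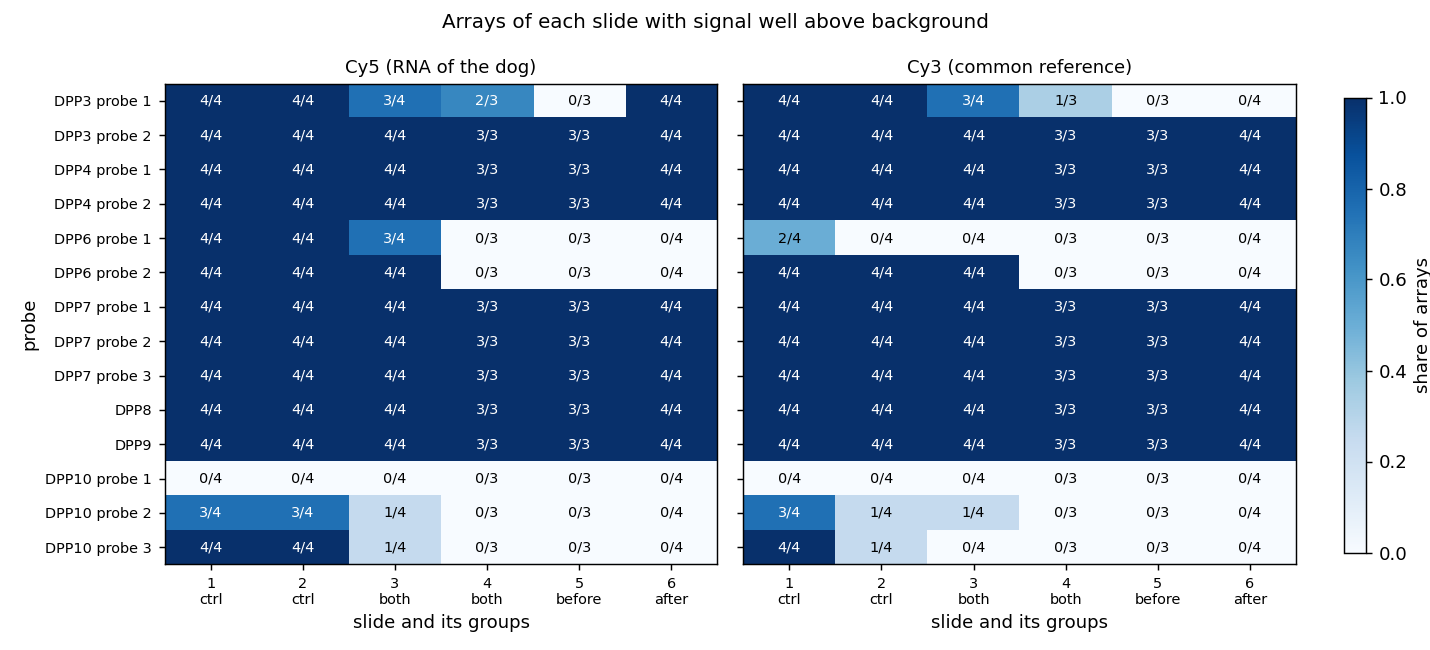
Number of arrays of each slide on which each of the 14 probes was well above background, in Cy5 (RNA of the dog, left) and in Cy3 (common reference, right); slides 1 and 2 held ctrl, 3 and 4 both times of cAD patients, 5 before ASIT and 6 after ASIT. 8 probes are at full count in both channels. *DPP6* and *DPP10* are at 0 on slides 4 to 6 in both, and *DPP10* probe 1 is at 0 on every slide. In Cy3, *DPP6* probe 1 is also at 0 on slides 2 and 3, and *DPP10* probe 3 on slide 3.

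The comparisons between groups asked whether blood expression of the family differed in cAD patients from healthy dogs and whether it changed over ASIT. Testing required a Cy5 signal above background on 7 or more arrays, which 13 of the 14 probes met and *DPP10* probe 1 did not. *DPP6* probes 1 and 2 and *DPP10* probes 2 and 3, above background on 1 to 4 of the 14 patient arrays, passed only because the ctrl arrays were counted, so a lower Cy5 signal in the patients follows in part from the filter for these 4. With limma over all 38286 tested probes and Benjamini-Hochberg adjustment, 0 of 13 member probes had an adjusted p under 0.05 in 0 vs. ctrl (0.0418% of all tested probes did), 0 of 13 in 6 months vs. ctrl (0% of all) and 0 of 13 in 0 vs. 6 months (0% of all). Without adjustment 1 of 13 member probes had a p under 0.05 in 0 vs. ctrl (11.7% of all), 0 of 13 in 6 months vs. ctrl (7.2% of all) and 1 of 13 in 0 vs. 6 months (5.96% of all). By the exact permutation test of single probes, 1 member probe had a p under 0.05 in each comparison, where 12.5%, 10.5% and 3.39% of all probes did, in the same order. The groups of 0 of 13 member probes were free of overlap in any comparison (0.219%, 0.11% and 0.0183% of all probes). Of the 9 probes that passed on the patient arrays alone, 0 had an unadjusted limma p under 0.05 in any comparison, and 1 had an exact p under 0.05, in 6 months vs. ctrl. The median difference of these 9 was -0.03, 0.06 and -0.01 on the log2 scale, beside -0.02, -0.04 and -0.01 over all tested probes.

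**Figure D2:**
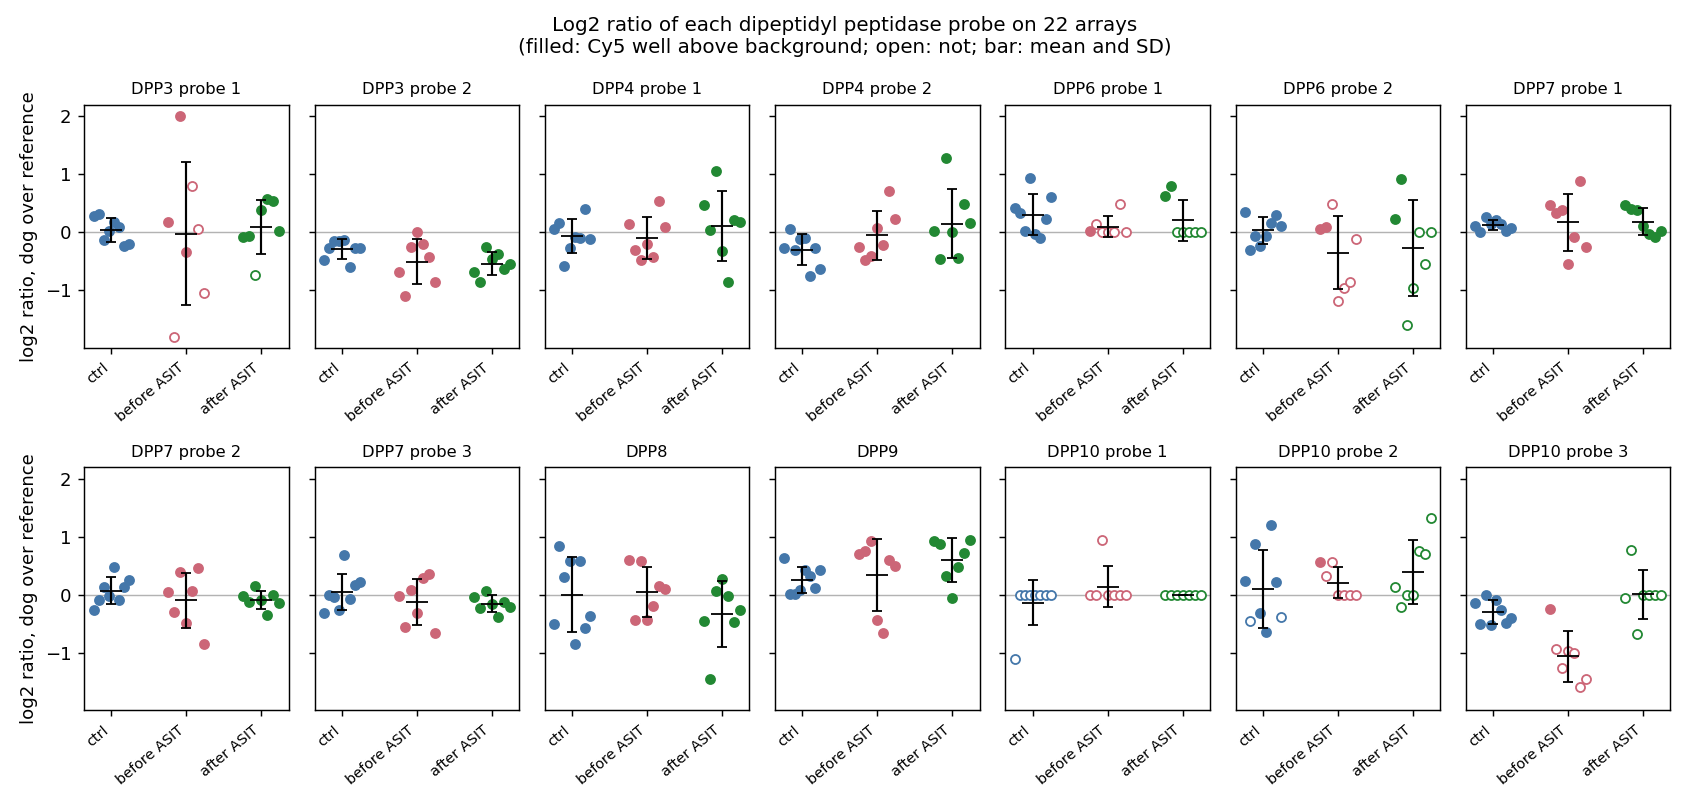
Log2 ratio of the dog RNA over the common reference for each of the 14 probes in ctrl (n = 8), before ASIT (n = 7) and after ASIT (n = 7); each point is an array, filled where Cy5 was well above background, and bars give the mean and SD. The groups overlap in every panel, and the open points of *DPP6* and *DPP10* are mostly those of cAD patients.

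*DPP4* differed more between dogs than between groups. By probe 1 the log2 ratio had its lowest, median and highest value at -0.58, -0.09 and 0.40 in ctrl, at -0.48, -0.20 and 0.54 before ASIT and at -0.86, 0.17 and 1.06 after ASIT. By probe 2 these values were -0.76, -0.27 and 0.06 in ctrl, -0.48, -0.22 and 0.71 before ASIT and -0.47, 0.03 and 1.28 after ASIT. The spread was widest after ASIT by both probes, with an SD of 0.60 by each, and the 3 groups overlapped. The difference in 6 months vs. ctrl was 0.18 ± 0.22 (SE) by probe 1 (95% interval -0.28 to 0.64) and 0.45 ± 0.23 by probe 2 (-0.02 to 0.92), with limma adjusted p-values of 0.87 and 0.681 and exact permutation p-values of 0.478 and 0.0674. In 0 vs. 6 months it was -0.20 by each probe (limma adjusted p = 0.934 for both). With slide as a fixed block it was -0.76 by probe 1 and -0.67 by probe 2 (limma adjusted p = 1 for both), and in dogs 1 to 3 alone it was -0.74 and -0.66 (0.902 for both). Only slides 3 and 4 held both times, so for every probe both settings rest on nearly the same arrays. By probes 1 and 2 the difference was -0.34 and -0.15 within slide 3, and -1.39 and -1.45 within slide 4, which held dog 3. With normexp and loess, which adds an offset of 50 units to both channels, the difference in 0 vs. 6 months was -0.091 and, turned, 0.023. In Cy5 alone it was -0.13 and, turned, 0.015. In 6 months vs. ctrl normexp and loess gave 0.12 and 0.11, and Cy5 alone gave -0.10 by probe 1, turned, and 1.06 by probe 2. In bulk blood, fewer cells of a type and less RNA per cell cannot be told apart.

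A single patient carried much of the *DPP4* values after ASIT. In dog 3 the log2 ratio was -0.48 by probe 1 and -0.42 by probe 2 before ASIT, and 1.06 and 1.28 after ASIT. Both arrays of this dog lay on slide 4 and were scanned on the same day. Over all tested probes the deviations of these arrays from their group means correlated at 0.165, and its array before ASIT was closer to that of dog 7 after ASIT. Its Cy5 signal by probe 1 was 227 units before and 494 after ASIT, and by probe 2 it was 108 and 281, while Cy3 gave 315 and 238 by probe 1 and 144 and 116 by probe 2. The other 6 dogs changed by no more than 0.42 in either direction by probe 1, and of the 7 dogs 4 were higher after ASIT by probe 1 and 3 by probe 2. With both arrays of dog 3 left out, the difference in 6 months vs. ctrl was 0.02 by probe 1 and 0.26 by probe 2 (exact permutation p = 0.924 and 0.156), and that in 0 vs. 6 months turned to 0.02 and 0.05. Dog 6 had the highest ratio of its group before ASIT by both probes, 0.54 and 0.71. Across the 22 arrays the log2 ratios of the *DPP4* probes had a Pearson r of 0.70 (Spearman 0.61), as a description over arrays that share the reference RNA and, in part, their slide.

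**Figure D3:**
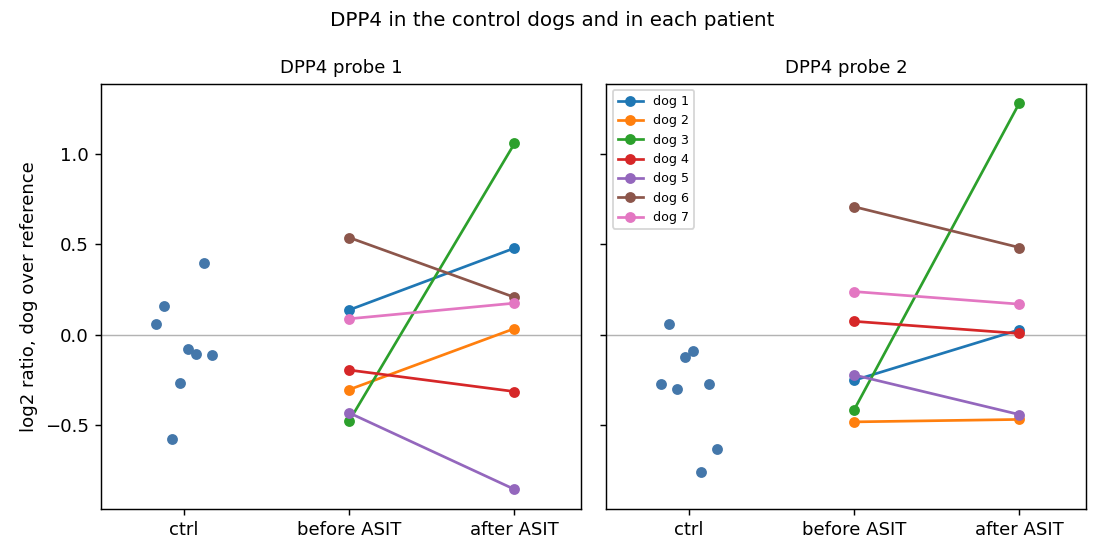
Log2 ratio of *DPP4* by probe 1 (left) and probe 2 (right) in the 8 ctrl dogs and in each of the 7 patients at both times, with lines joining the arrays of a dog. Dog 3 goes from -0.48 to 1.06 by probe 1 and from -0.42 to 1.28 by probe 2, and the lines of the other dogs are flatter.

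The cytosolic pair *DPP8* and *DPP9* had no difference past the threshold. The *DPP8* log2 ratio was at -0.85, -0.04 and 0.84 (lowest, median and highest) in ctrl, at -0.44, 0.11 and 0.59 before ASIT and at -1.46, -0.26 and 0.28 after ASIT. In 0 vs. 6 months it was higher before ASIT in 5 of 7 dogs, by 0.38 ± 0.29 (SE) on average (95% interval -0.21 to 0.98, limma adjusted p = 0.934, exact paired permutation p = 0.172), by 0.63 with slide as a fixed block, by 0.86 in dogs 1 to 3 alone and by 0.12 with normexp and loess (limma adjusted p = 1, 0.902 and 1). The *DPP9* log2 ratio was at 0.01, 0.22 and 0.64 in ctrl, at -0.65, 0.60 and 0.93 before ASIT and at -0.06, 0.72 and 0.94 after ASIT. Here the ratio was lower before ASIT in 6 of 7 dogs, and the mean difference was -0.26 ± 0.23 (-0.73 to 0.22, limma adjusted p = 0.934, exact paired permutation p = 0.25). It was -0.13 with slide as a fixed block, -0.051 with normexp and loess, and turned to 0.092 in dogs 1 to 3 alone. In 6 months vs. ctrl *DPP9* differed by 0.34 ± 0.22 (-0.11 to 0.80), with an exact permutation p of 0.0513 and a limma adjusted p of 0.707, and with normexp and loess it differed by 0.061. Of the 7 patients 3 before ASIT and 4 after ASIT lay above every ctrl dog, and 2 before and 1 after lay below every ctrl dog.

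*DPP7*, the vesicular peptidase, was alike by its probes 2 and 3 and had the narrowest spread of the family in ctrl by probe 1. The log2 ratio of probe 1 was at 0.01, 0.12 and 0.27 in ctrl (SD 0.09), at -0.54, 0.33 and 0.88 before ASIT (SD 0.49) and at -0.08, 0.10 and 0.48 after ASIT (SD 0.23). The values of ctrl thus lay inside the ranges of the patients. Probes 2 and 3 ranged from -0.85 to 0.48 and from -0.65 to 0.68 over the 22 arrays, with a Pearson r of 0.89 between them as a description. The 9 differences of the *DPP7* probes lay between -0.20 and 0.06, all with intervals that held 0. The widest bounds of these intervals were -0.55 and 0.41.

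*DPP3*, the partner of KEAP1, had by probe 2 a lower mean after ASIT than in ctrl, with a p under 0.05 in the exact test alone. The log2 ratio of probe 2 was at -0.60, -0.27 and -0.13 in ctrl, at -1.11, -0.43 and 0.01 before ASIT and at -0.86, -0.54 and -0.25 after ASIT. Of the 7 dogs after ASIT 3 lay below every ctrl dog, and the rest overlapped with them. In 6 months vs. ctrl the difference was -0.25 ± 0.16 (SE, 95% interval -0.57 to 0.07), with an exact permutation p of 0.0225 and a limma adjusted p of 0.701. Leaving out dog 2 after ASIT moved it to -0.20 (exact permutation p = 0.0516), and with normexp and loess it was -0.062. Probe 1 differed by 0.06 ± 0.36 in the same comparison. It was dim in the patients, and its log2 ratio ran from -1.81 to 2.01 before ASIT against -0.23 to 0.31 in ctrl.

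*DPP10* probe 3 had the largest differences of log2 ratio among the member probes in 0 vs. ctrl and 0 vs. 6 months, and not in 6 months vs. ctrl, where *DPP4* probe 2 stood at 0.45 and *DPP10* probe 3 at 0.31. Its log2 ratio was at -0.52, -0.33 and -0.01 (lowest, median and highest) in ctrl, at -1.59, -0.998 and -0.24 before ASIT and at -0.68, 0.00 and 0.78 after ASIT. Before ASIT 6 of 7 dogs lay below every ctrl dog, and dog 1 lay within ctrl. These values rest on dim signals: Cy5 was well above background in all 8 ctrl dogs, but only in dog 1 among the 7 patients before therapy and in 0 of 7 after ASIT. The probe thus passed the filter by ctrl, and its differences are given as a description of ratios between signals mostly not well above background in the patients. The difference was -0.76 ± 0.19 (SE) in 0 vs. ctrl (limma adjusted p = 0.124) and -1.07 ± 0.20 in 0 vs. 6 months (limma adjusted p = 0.0949). All 7 dogs were lower before than after ASIT, by -0.19 to -1.71. The study named *DPP10* from these same arrays, so these values are not independent evidence of a direction. Single arrays moved the call: the adjusted p fell under 0.05 without dog 1 before ASIT, the only patient array with the probe above background (-0.90 in 0 vs. ctrl and -1.21 in 0 vs. 6 months), and without dog 3 after ASIT (-1.18 in 0 vs. 6 months). These calls carry no weight as tests. In 0 vs. ctrl the probe passed the filter by ctrl, and in 0 vs. 6 months the signals compared were mostly not well above background. After normexp background correction and loess the differences from ctrl and from after ASIT were -0.07 and -0.117, in the same order. In 0 vs. ctrl those of *DPP4* probe 2 (0.14) and *DPP7* probe 3 (-0.12) were then larger in size, and in 0 vs. 6 months that of *DPP8* (0.120) was. This setting adds an offset of 50 units to both channels, which by construction makes ratios of signals as dim as these smaller in size.

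The channels behind this ratio are described one by one, on signals mostly not well above background in the patients. In Cy5, the RNA of the dogs, *DPP10* probe 3 was at 41.1 to 93.9 signal units in ctrl (median 54.6), at 4.93 to 43.9 before ASIT (median 8.54) and at 5.75 to 62.7 after ASIT (median 8.84). In Cy3, the common reference, it was at 53.1 to 104 units in ctrl (median 77.1), at 10.9 to 51.8 before ASIT (median 20.5) and at 7.20 to 48.6 after ASIT (median 10.2). These medians, of signals not scaled between arrays, were close before and after ASIT in Cy5 and higher before ASIT in Cy3. Which channel the difference in ratio came from was not tested. Within dogs, Cy5 was lower before ASIT than after it in 4 of 7 and Cy3 was higher before ASIT in 6 of 7. The Cy3 signal before ASIT over that after it ran from 0.682 to 3.02 across the 7 dogs. With each channel scaled alone by quantile normalization, the difference in 0 vs. 6 months was -0.41 in Cy5 (limma adjusted p = 0.64) and 0.86 in Cy3 (limma adjusted p = 0.0724). None of the 14 patient arrays (0 of 14) had Cy3 above background for this probe. The ratio was written as exactly 0 on 4 of 7 arrays after ASIT, those of dogs 4 to 7 on slide 6, and on 0 of 7 before ASIT. Within slide 3 the difference before minus after ASIT was -0.95 (2 dogs each), and within slide 4 it was -0.44 (2 arrays before, 1 after).

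**Figure D4:**
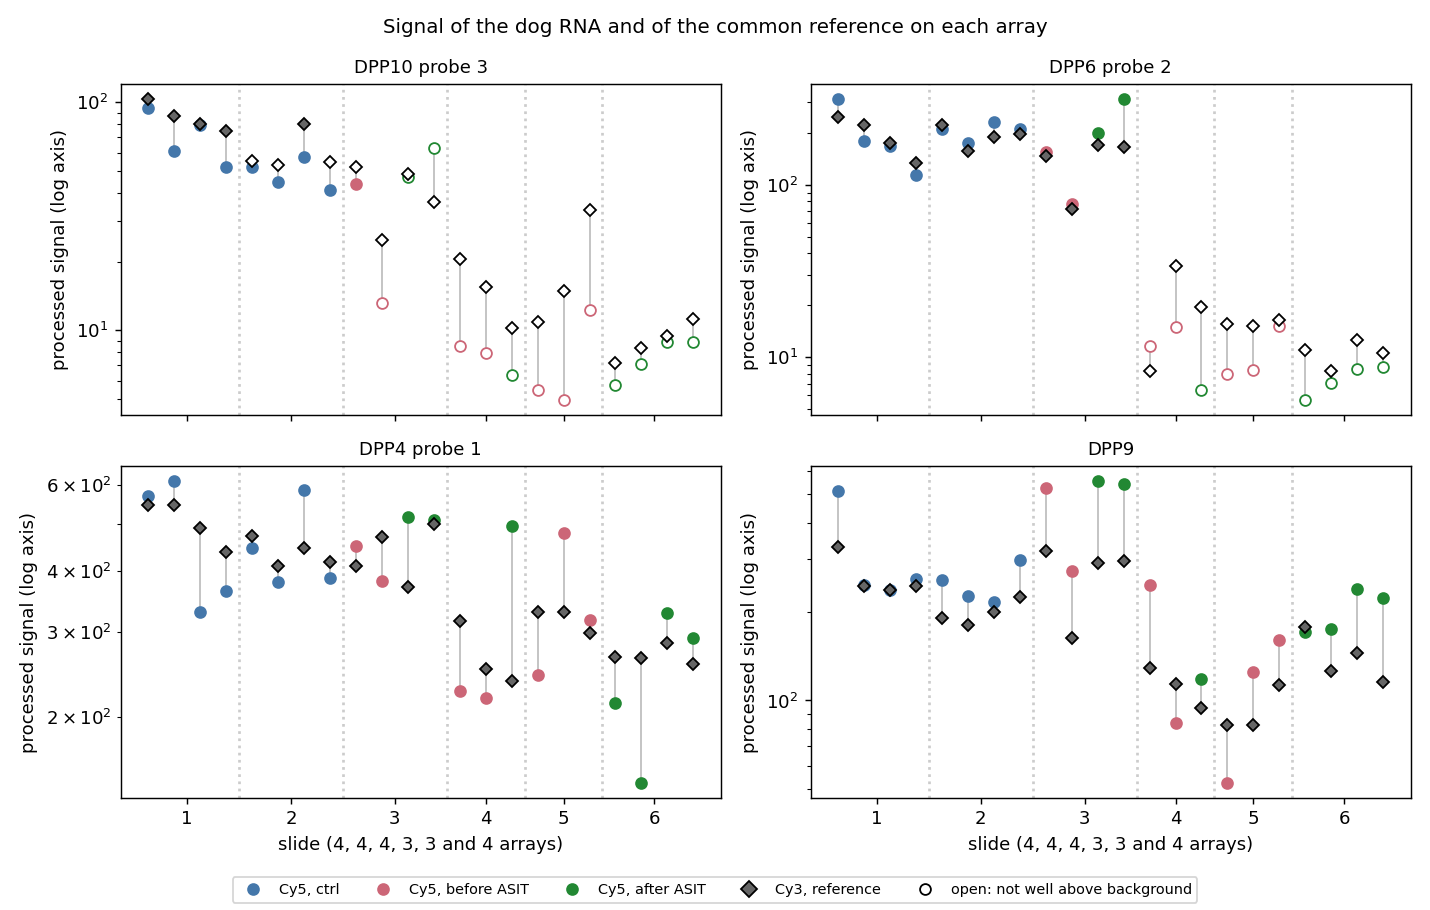
Processed signal of *DPP10* probe 3, *DPP6* probe 2, *DPP4* probe 1 and *DPP9* on each array, on a log axis and ordered by slide; circles are Cy5 (RNA of the dog, coloured by group), diamonds are Cy3 (common reference), lines join the channels of an array, and open symbols were not well above background. Both channels of *DPP10* and *DPP6* drop on slides 4 to 6, while *DPP4* and *DPP9* stay filled on all slides.

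The other probes of the channel subunits were as dim in most patients, so whether they moved with *DPP10* probe 3 could not be seen, and their values are descriptions. *DPP10* probe 2 had log2 ratios of -0.64 to 1.21 in ctrl, 0 to 0.57 before ASIT and -0.21 to 1.33 after ASIT, and differed by 0.11 ± 0.27 (SE) in 0 vs. ctrl and by -0.18 ± 0.27 in 0 vs. 6 months. Its Pearson r with probe 3 over the 22 arrays was 0.17, as a description of 2 dim probes. *DPP6* probe 1 was at -0.09 to 0.94 in ctrl, 0 to 0.48 before ASIT and 0 to 0.80 after ASIT, with the ratio at exactly 0 on 9 of 14 arrays of patients. *DPP6* probe 2 was at -0.31 to 0.35 in ctrl, -1.18 to 0.49 before ASIT and -1.59 to 0.93 after ASIT. Its difference was -0.38 ± 0.30 in 0 vs. ctrl (95% interval -0.996 to 0.23).

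Scaled channel by channel, differences from ctrl appeared in the reference RNA for many probes, with the same sign as in Cy5 for 8 of 13 member probes in 0 vs. ctrl and 11 of 13 in 6 months vs. ctrl. In Cy5 alone 3 of 13 member probes were called in 0 vs. ctrl (21.1% of all probes) and 2 of 13 in 6 months vs. ctrl (15.5% of all), with 0 of 13 in 0 vs. 6 months (0% of all). Of the 9 probes that passed the filter on the patient arrays alone, 1 was called in Cy5 in each comparison with ctrl, *DPP4* probe 2. In Cy3 alone, with the same RNA on every array, 7 of 13 were called in 0 vs. ctrl (46% of all) and 9 of 13 in 6 months vs. ctrl (44.4% of all), and 0 of 13 in 0 vs. 6 months (0.00784% of all). *DPP6* probe 2 differed by -1.63 on the log2 scale in Cy5 and by -1.48 in Cy3 in 0 vs. ctrl. *DPP4* probe 2 differed by 1.07 in Cy5 and by 0.69 in Cy3 in the same comparison, while its processed Cy5 signals before this scaling had medians of 139 units in ctrl and 127 before ASIT. *DPP10* probe 3 differed by -0.81 in Cy5 and by 0.25 in Cy3 in 0 vs. ctrl. The Cy5 value is that of a probe the Cy5 filter kept for its ctrl arrays. The part of slide and scan in these differences was not tested beyond the Cy3 values.

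**Figure D5:**
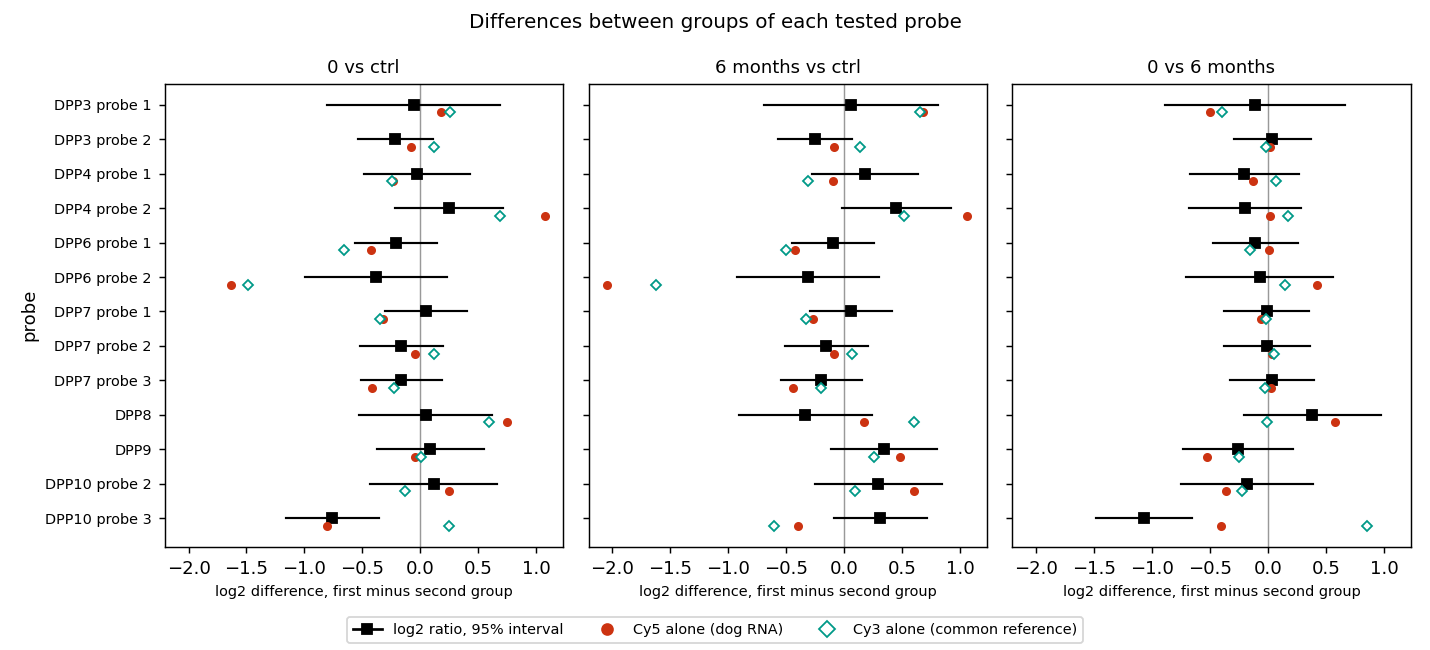
Log2 differences between groups of the 13 tested probes (squares, with 95% intervals from limma) and, offset below each, the differences of the Cy5 channel (circles) and of the Cy3 channel (open diamonds) scaled alone, first minus second group. The intervals of the other 12 probes hold 0 in all 3 panels and those of *DPP10* probe 3 in 1 of 3, and for *DPP6* probe 2 both channels lie between -1.48 and -2.05 in the comparisons with ctrl.

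Partners and substrates of the family were read from 6 lists of genes. The lists held 59 genes, of which 47 were on the array with 80 tested probes. 0 of 80 probes had an adjusted p under 0.05 in any comparison, and 9, 6 and 5 had an unadjusted p under 0.05 in 0 vs. ctrl, 6 months vs. ctrl and 0 vs. 6 months (11.2%, 7.5% and 6.25% of them, beside the shares of all probes given above). Among proteins that bind DPP4, 6 of 7 genes had a probe above background on all 22 arrays. The smallest p was that of *CXCR4*, the receptor of a chemokine that DPP4 trims, at a log2 ratio of 0.66 before ASIT and -0.09 in ctrl (difference 0.75 ± 0.22 (SE), limma adjusted p = 0.176; 0.69 by its other probe). Among DPP4 substrates 3 of 12 genes on the array, among them *CCL5* and *CCL22*, were above background on all arrays, and *CCL22* differed by -0.33 ± 0.12 in 0 vs. ctrl (limma adjusted p = 0.242). Genes of the Kv4 channel complex were mostly dim, as *DPP6* and *DPP10* were: 2 of 6 had a probe above background on all arrays. *KCNIP1*, which encodes a cytosolic subunit of the channel, had 2 probes, both of which reached the filter only with the ctrl arrays counted, so their differences are descriptions. The dimmer one, above background in Cy5 on 2 of 14 arrays of patients, differed by -0.64 ± 0.23 in 0 vs. ctrl and -0.68 ± 0.23 in 0 vs. 6 months. The other, above background on 4 of 14, differed by -0.47 and -0.49.

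The other lists gave the same count of 0 called probes. Among related peptidases, 10 of 13 genes were above background on all arrays, and *XPNPEP2*, a membrane aminopeptidase for chains with proline, had the smallest p in 6 months vs. ctrl (log2 ratio of 1.25 after ASIT and 0.13 in ctrl, difference 1.12 ± 0.32 (SE), limma adjusted p = 0.602). It was above background in Cy5 on 13 of 14 arrays of patients and in Cy3 on 5. In the list of the oxidative stress response bound to DPP3 by KEAP1, 6 of 7 genes were above background on all arrays and *GCLM*, a subunit of the enzyme that starts glutathione synthesis, differed by 0.58 ± 0.26 in 0 vs. ctrl (limma adjusted p = 0.371). Of 7 inflammasome genes 2 were on the array, *IL1B* and *IL18*, both above background on all arrays, and *IL18* differed by 0.44 ± 0.27 in 0 vs. ctrl (limma adjusted p = 0.561) and by 0.35 by its other probe.

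Markers of blood cells were read beside the *DPP4* values. In 6 months vs. ctrl 16 of 18 T cell probes had a negative difference, while 43.6% of all tested probes had a positive one. The median difference was -0.29 beside -0.04 over all tested probes. The list mean ranged from -0.49 to 0.28 in ctrl and from -0.55 to 0.05 after ASIT (0 of 18 called). Medians of the other marker lists in this comparison ran from -0.31 (platelet) to 0.92 (erythroid). *DPP4*, which T cells carry, had differences of 0.18 and 0.45 in the same comparison. In dog 3 the mean of the T cell list was 0.39 before ASIT and -0.39 after it, while *DPP4* was higher after ASIT by both probes. The 5 probes of eosinophil and basophil markers had a mean of -0.20 before and 1.499 after ASIT in dog 3 and of 1.81 in dog 6 before ASIT, the arrays with the highest *DPP4* ratios of their groups. Over the 22 arrays the mean of this list had a Pearson r of 0.72 (Spearman 0.49) with *DPP4* probe 2 and 0.45 (0.21) with probe 1, and the T cell list one of 0.06 and 0.15, as descriptions over arrays that share reference and slide. The 18 neutrophil probes also had their highest mean of each group on these arrays, 1.24 in dog 6 before ASIT and 0.94 in dog 3 after ASIT (0.72 before), with a Pearson r of 0.37 (Spearman 0.13) with *DPP4* probe 2 and 0.38 (0.30) with probe 1. The other 5 marker lists had a Pearson r between -0.36 and 0.26 with either probe. Of the 6 marker genes of the eosinophil and basophil list, 4 were on the array and 3 were above background on every array. The 5 probes were 2 of *MS4A2* and 1 each of *CPA3*, *CCR3* and *IL5RA*, and *EPX* and *PRG2* had no probe of that name. In 0 vs. 6 months 4 of the 5 were lower before ASIT, while *CCR3* was higher (mean log2 ratio -0.19 before and -0.60 after ASIT). The list mean thus does not stand for every member. The list mean ranged from -0.55 to 0.42 in ctrl, from -0.60 to 1.81 before ASIT and from -0.51 to 1.499 after ASIT. The part of blood cell composition in the *DPP4* values was not tested.

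Genes with the most similar pattern were taken for the brightest probe of each member above background throughout. The measure was the Pearson r of log2 ratios less the group means over 22 arrays, among 12344 probes of genes with a symbol. *DPP9* was closest to *SLC25A39* (r = 0.95), *MIOX* (0.93) and *SYCN* (0.93). *DPP3* probe 2 was closest to *SUGP1* (r = 0.93), *RQCD1* (0.92) and *SEC61A1* (0.92), and *DPP7* probe 3 to *CCDC136* (0.92), *RAD54L2* (0.91) and *FLAD1* (0.88). *DPP8* was closest to *SLC5A3* (r = 0.89), *GSK3B* (0.86) and *AREL1* (0.86). *DPP4* probe 1 stood less close to any gene, with *TRAF2* (r = 0.71), *IFT140* (0.63) and *ZBTB12* (0.63) at the top. These values were picked as the highest of many and carry no test.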

How the data were processed

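Each array was scanned and read with Agilent Feature Extraction, for which the submitters' processing notes name version 10.7.3.1 and the file headers 10.10.1.1. Per the file headers, the deposited files hold for each spot background-subtracted, dye-normalized Cy5 and Cy3 intensity values and their log10 ratio. The deposited series matrix holds log10 ratio values of the authors. Its columns equal the scanner files for the 14 arrays of patients and correlate with them at 0.74 to 0.85 for ctrl. The column medians are 0 to 0.0036, and how its ctrl columns were scaled or centred is not given in the sources used here.

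The log10 ratios were converted to log2 ratios, 208 outlier-flagged and all control spots were left out, and spots of a probe were averaged. limma 3.58.1 in R 4.3.3 was fitted to 22 arrays in 3 groups without a block, with Benjamini-Hochberg adjustment over 38286 probes whose Cy5 passed the background flag on 7 or more arrays. Single probes were also compared by exact two-sided permutation tests (39 in all, and 13 within dogs). Figures were drawn with matplotlib 3.10.9. No array had the dyes swapped, so dye bias of a probe enters every ratio alike. Depth is not defined for arrays, and their number limits the precision.

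The pairing of arrays by dog comes from the labels. Deviations from the group means of arrays of the same dog correlated at -0.04 to 0.56, and for 4 of 7 dogs the array before ASIT was closest to the same dog's after ASIT (not for dogs 3, 5 and 6). Every member probe was named. From other lists, the genes named were those with the smallest p in a comparison or above background on the most arrays. The members and lists were chosen with earlier results of these data known, *KCND2*, *NLRP1*, *CARD8* and other genes with no probe of that name were not analysed here.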

Additional observations from a re-analysis of the deposited data

Results flagged for a closer look

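Among 39 sets of values (13 probes in 3 groups), 1 sample stood far from the others by Dixon's rule, which chance alone gives in about 1 of 20 groups: *DPP6* probe 1 in dog 6 before ASIT, at a log2 ratio of 0.48 with the nearest dog at 0.15 and 4 of the 7 at exactly 0. The probe was not well above background in that dog in either channel, at 7.07 signal units in Cy5 and 5.05 in Cy3.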

How the results depend on the processing

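The number of member probes called was 0 in each comparison with normexp and loess, the ratio of processed signals, the series matrix, no filter or a strict filter on dim probes, slide or scan day as a random block, the one-way and Tukey's tests of the methods (run on the probes tested here, without the study's own filters) and, in 0 vs. 6 months, the dog (replicate) block, dogs 1 to 3 alone and a fixed slide block. With Cy5 alone it was 3 in 0 vs. ctrl (21.1% of all probes) and 2 in 6 months vs. ctrl (15.5% of all). Of these, 2 and 1 in the same order passed the filter only with the ctrl arrays counted. The count of 8 probes above background on all arrays stayed 8 with the flag for a positive and significant signal.

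The dog block paired the arrays of a patient and changed no call. With complete pairs it leaves each difference as it was by construction, and the limma adjusted p of *DPP10* probe 3 in 0 vs. 6 months (-1.07) went from 0.0949 to 0.702. Over 11 alternatives this difference ran from -0.12 to -1.07 (adjusted p = 0.107 to 1), and over leaving out 1 array from -0.94 to -1.21. In 0 vs. ctrl leaving out 1 array gave -0.67 to -0.90, and for *DPP3* probe 2 in 6 months vs. ctrl -0.20 to -0.30 (exact p = 0.00874 to 0.0516).

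Of 375 alternative values of the 39 differences, 37 turned in sign, 0 of them called; the cause was not tested. With normexp and loess 32 of the 39 differences were smaller in size by over 1.5 times and 1 larger. That setting adds an offset of 50 units to both channels, which by construction makes ratios of dim signals smaller in size. With Cy5 alone 12 were smaller and 23 larger by as much, and with the series matrix 2 and 7. In 0 vs. 6 months 10 of 13 were larger by over 1.5 times with slide as a fixed block and 11 of 13 in dogs 1 to 3 alone. Both settings rest on nearly the same arrays, since only slides 3 and 4 held both times. Log2 differences that turned were, with normexp and loess, *DPP3* probe 1 0.018, *DPP4* probe 1 0.031 and *DPP7* probe 1 -0.0085 (0 vs. ctrl), *DPP3* probe 1 -0.012 and *DPP6* probe 2 0.033 (6 months vs. ctrl), and *DPP3* probe 1 0.030, *DPP4* probe 2 0.023 and *DPP7* probe 2 0.0020 (0 vs. 6 months). With Cy5 alone they were *DPP3* probe 1 0.18, *DPP7* probe 1 -0.33 and *DPP9* -0.048 (0 vs. ctrl), *DPP4* probe 1 -0.10, *DPP7* probe 1 -0.27, *DPP8* 0.17 and *DPP10* probe 3 -0.40 (6 months vs. ctrl), and *DPP4* probe 2 0.015, *DPP6* probe 1 0.0073, *DPP6* probe 2 0.42 and *DPP7* probe 2 0.038 (0 vs. 6 months). With the series matrix *DPP3* probe 1 gave 0.11 in 0 vs. ctrl. In 0 vs. 6 months the ratio of processed signals gave 0.11 for *DPP6* probe 1, slide as a random block -0.0075 for *DPP7* probe 3, and scan day as a random block -0.024 for *DPP3* probe 2, 0.046 for *DPP6* probe 2 and -0.027 for *DPP7* probe 3. Slide as a fixed block gave *DPP3* probe 1 0.19, *DPP3* probe 2 -0.026, *DPP6* probe 2 0.20, *DPP7* probe 3 -0.17 and *DPP10* probe 2 0.40. Dogs 1 to 3 alone gave *DPP3* probe 1 0.42, *DPP3* probe 2 -0.088, *DPP6* probe 2 0.36, *DPP7* probe 2 0.050, *DPP7* probe 3 -0.098, *DPP9* 0.092 and *DPP10* probe 2 0.51. Without dog 3, chosen after seeing the data, *DPP4* probe 1 gave 0.037 in 0 vs. ctrl and 0.018 in 0 vs. 6 months and probe 2 gave 0.048. Values of *DPP10* in the patients rest on signals mostly not well above background, as do those of *DPP6* on slides 4 to 6.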
